A study of Homo sapiens with 32 samples.

Results

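This account covers the chromatin loops that were called after sorbitol and had 2 new anchors. A loop was included when both of its anchors lay more than 10 kb from every loop anchor of the untreated list of the same cell line. The rule found 1389 of 5906 sorbitol loops in wild-type cells (23.5%) and 909 of 5577 in eGFP-YAP cells (16.3%), 2298 of 11483 in all. The loops were chosen by the called positions of the 2 lists of a line, so these shares describe the choice and carry no test. The same rule applied to the control list of the other line, which holds no treated cells, picked 14.1% of its loops against the wild-type control and 9.02% against the eGFP-YAP control. With that list cut to the length of the sorbitol list by score, it picked 9.4% and 5.58%.

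The loops come from in situ Hi-C, in which chromatin is cut, its ends are joined inside the nucleus, and the sequenced junctions show which segments lay close together. HEK293 cells, a human embryonic kidney line, were untreated or received 200 mM sorbitol for 1 h, and the stated aim was to follow chromatin contacts under hyperosmotic stress. The wild-type cells have 3 labelled replicates per condition. The second line, labelled eGFP-YAP, has 4; YAP is a co-activator of transcription, and eGFP is a green fluorescent tag. The labels do not say how the fusion is expressed or whether the line is a clone, the growth protocol speaks of HEK293T, and the design text mentions serum starvation before sorbitol for the eGFP-YAP line. The series has 32 samples in all. It gives 1 loop list per line and condition, with no replicate columns, so conditions could not be tested against a spread between replicates. Intervals in brackets are 95% intervals over loops or loop ends. They cover counting error only, and loops that share an anchor or a neighbourhood are not independent.

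In untreated cells, many loops are held by the ring-shaped complex cohesin, which draws DNA through itself until it meets the zinc-finger protein CTCF bound to its motif. Such loops typically join a pair of CTCF motifs that point toward each other. Other contacts join promoters and enhancers with no CTCF motif at the join. Sorbitol cannot freely enter cells, draws water out of them and crowds the nucleus. A loop caller reports bright spots of a contact map, and each anchor here is a 5 kb bin of the hg38 genome. The end of a loop means 1 of its anchors, and a gene start means the first base of a protein-coding gene in GENCODE release 44.

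**Figure D1:**
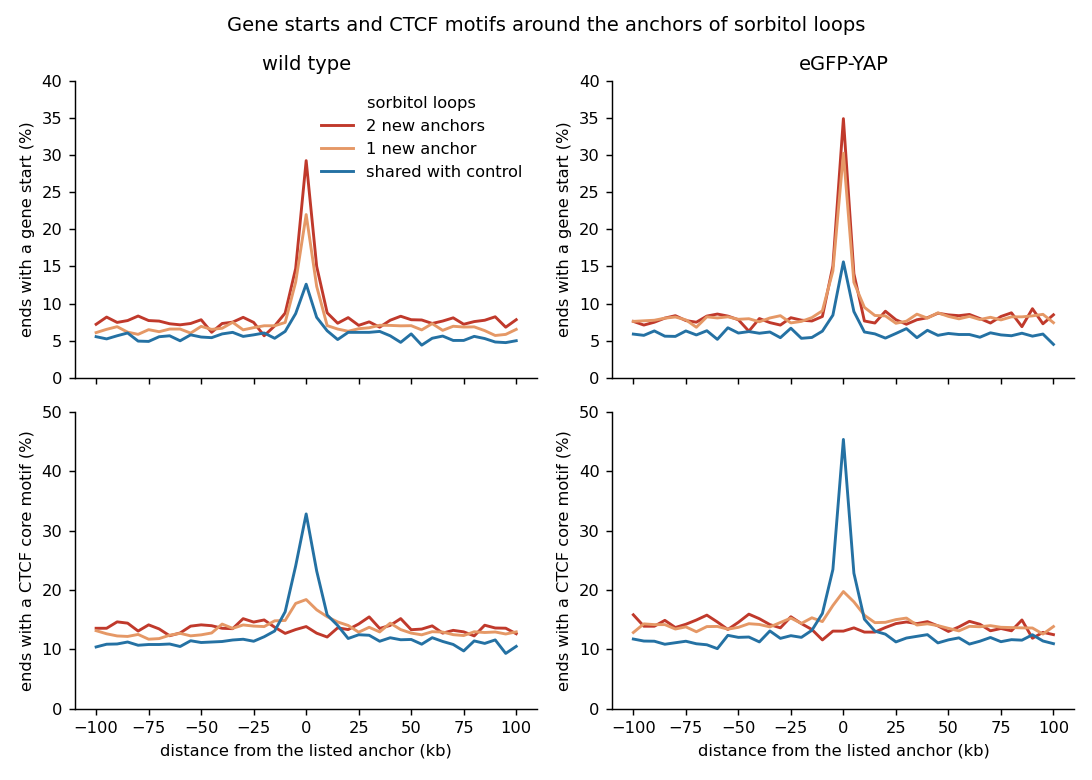
Share of loop ends with a protein-coding gene start (upper panels) and with a CTCF core motif (lower panels), in percent, at the listed anchor (0 kb) and at bins up to 100 kb to either side; lines are classes of sorbitol loops. Loops with 2 new anchors peak at 29.3% and 34.9% for gene starts and show no peak for the motif, whereas loops shared with control reach 32.8% and 45.4% for the motif.

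The sequences that follow show the 2 kinds of feature by which the loops were described, the CTCF core motif and promoters with their CpG dinucleotides. They belong to loops with 2 new anchors that were called in both lines, and were read from the wild-type bins. The eGFP-YAP bins of the MAGEL2, ACVR2B and DENND10 ends lay 5 kb to the side and did not hold the printed bases. The 14 loops named here are the 12 highest by the caller's score, the longest and 1 of the shortest. CTCF core motif matches lay at a wild-type end of 4 of them, always at only 1 of the 2 ends. They are printed 5′ to 3′ on the strand of the motif, with the 14 matched bases in capitals and 8 bases on either side, and no more than 1 mismatch to the motif was allowed.
PLCD1 end, chr3:38029734-38029763, minus strand, outside genes: tcgcgtccCCAGAAGGGGGCGGggagagac
MAGEL2 end, chr15:23649097-23649126, plus strand, outside genes: aaaacgtgCCACCAGGGGGCAGatgaggac
GALNT9 end, chr12:132245314-132245343, minus strand, in GALNT9: cagcctccCAAGTAGGTGGCACcacaggca
CFAP57 end, chr1:43172171-43172200, plus strand, in a UTR of EBNA1BP2: ccaagcggCTAGCAGAGGGCGGccctggcc
Only the match near MAGEL2 fitted the motif without a mismatch, and the other 3 had 1 each.

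The next 4 sequences are the 250 bases before the gene start (RefSeq, GRCh38.p14, the genome version used here). Each lies at an end of a loop that had a gene start at both ends in wild-type cells. CpG dinucleotides are in capitals, since CpG density was the base composition by which these ends stood apart most from displaced ones.
ACVR2B, chr3:38453640-38453889, plus strand: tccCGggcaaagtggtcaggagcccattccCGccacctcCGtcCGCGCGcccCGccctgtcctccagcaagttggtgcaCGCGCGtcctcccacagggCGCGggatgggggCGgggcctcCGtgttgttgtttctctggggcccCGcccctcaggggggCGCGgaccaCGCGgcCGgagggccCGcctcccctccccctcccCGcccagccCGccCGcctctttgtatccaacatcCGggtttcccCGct
DENND10, chr10:119103863-119104112, plus strand: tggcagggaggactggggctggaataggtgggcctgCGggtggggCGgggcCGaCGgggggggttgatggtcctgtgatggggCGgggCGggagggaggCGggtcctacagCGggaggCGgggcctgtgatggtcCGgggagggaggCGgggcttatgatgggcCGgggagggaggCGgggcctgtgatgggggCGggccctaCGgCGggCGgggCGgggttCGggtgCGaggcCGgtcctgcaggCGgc
TPGS1, chr19:507247-507496, plus strand: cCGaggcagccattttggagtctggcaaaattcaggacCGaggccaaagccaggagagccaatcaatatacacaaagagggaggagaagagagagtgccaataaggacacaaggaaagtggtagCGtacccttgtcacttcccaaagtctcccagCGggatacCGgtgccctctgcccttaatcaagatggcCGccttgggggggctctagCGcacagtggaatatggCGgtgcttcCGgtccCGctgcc
ERMAP, chr1:42816872-42817121, plus strand: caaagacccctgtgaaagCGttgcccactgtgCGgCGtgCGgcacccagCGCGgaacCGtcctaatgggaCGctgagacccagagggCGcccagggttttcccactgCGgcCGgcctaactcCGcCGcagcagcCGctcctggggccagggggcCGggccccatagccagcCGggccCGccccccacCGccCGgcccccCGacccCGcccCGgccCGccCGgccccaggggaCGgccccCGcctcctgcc
These windows hold 26, 22, 10 and 26 CpG dinucleotides. Their ratios of observed to expected CpG were 0.785, 0.796, 0.505 and 0.715, against a median of 0.743 in all promoters. For genes starting in anchors of loops with 2 new anchors the medians were higher, 0.864 in wild type and 0.854 in eGFP-YAP. A GC box (GGGGCGGGG, on either strand) occurred 2 times before ACVR2B, 3 times before DENND10 and 1 time before ERMAP. Before TPGS1, the window held no GC box, and a YY1-type word (AAGATGGC) lay at base 185. A match of letters describes the window and shows no binding.

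The loop with the highest mean score in both lines lay on chromosome 13, between chr13:86185001-86190000 and chr13:86280001-86285000 in wild-type cells. Its score stood at percentile 99.7 of the wild-type sorbitol list and 99.6 of the eGFP-YAP list. Neither end lay in a protein-coding gene and no gene started between them. Of the bases between its ends, 55.6% (50 kb) are unsequenced in the reference, so the 2 ends flank a gap in the assembly. It was the only one of the 14 named loops with unsequenced bases between its ends.

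Most of the next named loops in rank joined genes. On chromosome 3, the end that held the start of PLCD1, a phospholipase C, was joined over 425 kb to the end with ACVR2B, a receptor for activins (percentiles 95.1 and 91.6). The ends lay 65 kb and 40 kb from the nearest wild-type control anchor, and 30 kb each from the nearest eGFP-YAP control anchor. On chromosome 4, ends 545 kb apart lay in CFAP99 and in GRK4, a receptor kinase, in wild-type cells. In eGFP-YAP cells the same loop was called 1 bin (5 kb) to the left, in bins that hold the starts of CFAP99 and ZFYVE28 and of GRK4 and NOP14. Its percentiles were 91.8 and 99.2.

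The loop on chromosome 15 ran 235 kb from MAGEL2 to an end outside genes, at percentiles 90.1 and 90.6. Its ends were 190 kb and 425 kb from the nearest control anchor in wild-type cells, and 175 kb and 410 kb in eGFP-YAP cells. On chromosome 12, an end inside GALNT9, a glycosyltransferase gene, was joined over 235 kb to an end that held the start of FBRSL1 in eGFP-YAP cells and lay just outside it, 5 kb away, in wild-type cells. Near the tip of chromosome X, in the region it shares with chromosome Y, the end holding AKAP17A was joined over 195 kb to SLC25A6, an ADP/ATP carrier of mitochondria, whose start lay in the eGFP-YAP bin and 5 kb outside the wild-type bin. LRRFIP1 and HES6, a transcription factor of the HES family, were joined over 550 kb on chromosome 2. The end in LRRFIP1 lay within the gene, and the wild-type end at HES6 held its start.

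Most of the remaining pairs joined gene starts. DENND10 and INPP5F, a phosphoinositide phosphatase, were joined over 625 kb on chromosome 10, at starts in the wild-type bins. The starts of CHMP4B, an ESCRT-III subunit, and EIF2S2, a subunit of translation initiation factor eIF2, were joined over 305 kb on chromosome 20 in eGFP-YAP cells, while the wild-type bin lay 5 kb from the CHMP4B start bin. On chromosome 19, TPGS1, a subunit of a tubulin-modifying enzyme, was joined over 290 kb to PTBP1, a splicing repressor, in the same bins in both lines. The loop from ERMAP and SVBP to CFAP57 on chromosome 1 (355 kb) and the loop from ZBTB2 to ARMT1 and RMND1 on chromosome 6 (60 kb) also had identical bins in both lines. The longest loop matched between the lines spanned 720 kb on chromosome 2. In wild-type cells it ran from the start of KIF1A, a kinesin of axonal transport, to an end outside genes. Both eGFP-YAP ends lay 5 kb to the right and outside genes. The shortest span was 35 kb, shared by matched loops on chromosomes 3, 4 and 7. The named one, on chromosome 3, ran from within TMEM39A to the start of TIMMDC1, an assembly factor of mitochondrial complex I. It was 365 kb and 395 kb from the nearest control anchors in both lines.

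Gene starts were several times as frequent at the ends of loops with 2 new anchors as at displaced ends, although most ends held none. In wild-type cells 29.3% of 2778 ends held a gene start (27.6 to 31.0%), and in eGFP-YAP cells 34.9% of 1818 ends did (32.8 to 37.1%). The same ends displaced by 100 kb to either side held a gene start in 7.51% and 8.04%, and 3.07% of all 5 kb bins of the genome do. The difference from displaced ends was 21.8 percentage points in wild-type cells (19.9 to 23.6) and 26.9 in eGFP-YAP cells (24.5 to 29.3). In the bins directly to the left and right of the anchor, the share was only 14.7% and 15.0% in wild type and 15.1% and 14.03% in eGFP-YAP. The called bin itself thus held the most gene starts, as the profile around the anchors shows.

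Among sorbitol loops, those with 2 new anchors held gene starts most often. Loops with 1 new anchor had a gene start at 21.99% of ends in wild type and 30.3% in eGFP-YAP, loops whose anchors had been used by other control loops at 19.1% and 30.0%, and loops shared with control at 12.6% and 15.6%. The control lists as a whole reached 5.74% and 7.70%. The loops with 2 new anchors exceeded those with 1 new anchor by 7.27 percentage points in wild-type cells (5.22 to 9.34) and by 4.66 in eGFP-YAP cells (2.06 to 7.30). The new end of a loop with 1 new anchor and its old end held gene starts about equally often, at 21.8% and 22.2% in wild type and 30.5% and 30.1% in eGFP-YAP. Control loops of the other line with 2 new anchors by the same rule had gene starts at 9.24% of ends (against the wild-type control) and 4.49% (against the eGFP-YAP control). The whole control lists that these 2 sets come from had 7.70% and 5.74%. Displaced ends of the 2 sets that lay away from control anchors had 4.30% and 3.27%. The part of the rule in the gene-start shares was not tested.

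A gene start at both ends was found in 12.7% of the wild-type loops (177 of 1389) and 19.7% of the eGFP-YAP loops (179 of 909). A gene start at a single end was found in 33.1% and 30.5%, and none at either end in 54.2% and 49.8%. About as many loops lacked a gene start as had one. Counting every end, 79.6% and 81.8% of all ends overlapped a protein-coding gene, against 66.6% and 69.0% of displaced ends and 47% of genome bins. Both ends lay within the same gene in 9.36% and 8.47% of loops. The median distance from the end to the nearest gene start was 6.33 kb (wild type) and 4.94 kb (eGFP-YAP), while control loops had medians of 45.4 kb and 38.0 kb.

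The direction of transcription was mixed at loops with gene starts at both ends, each on a single strand. In wild-type cells, 18 of 118 such pairs pointed toward each other (15.3%) and 39 pointed away from each other (33.1%). In eGFP-YAP cells these counts were 32 and 30 of 117 (27.4% and 25.6%). Of all ends whose gene starts were on a single strand, transcription ran into the loop at 297 of 650 (45.7%, 41.9 to 49.5%) and 245 of 506 (48.4%, 44.1 to 52.8%). The wild-type interval lay just below equal shares and the eGFP-YAP interval included them.

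**Figure D2:**
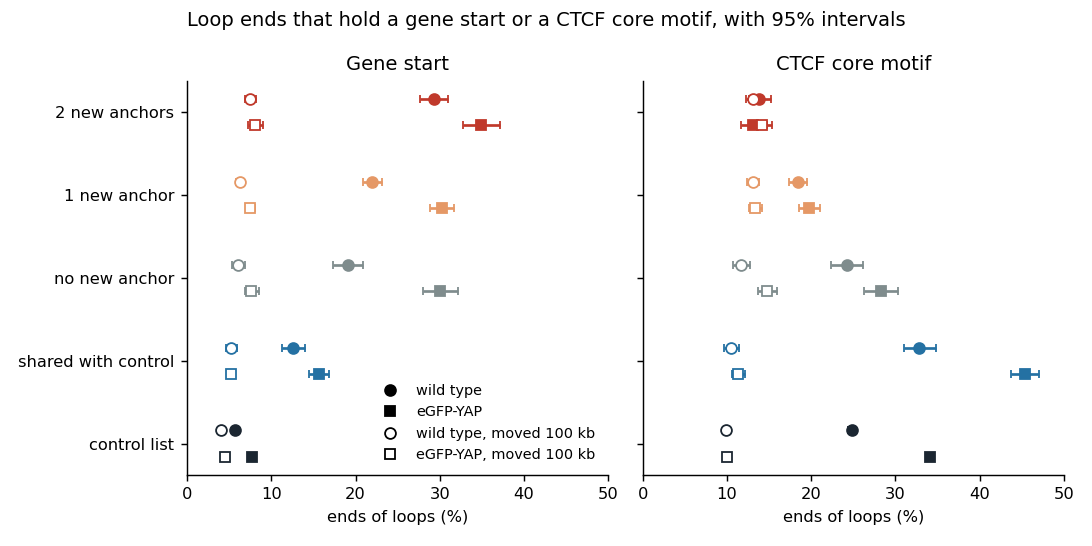
Percent of loop ends with a gene start (left) and a CTCF core motif (right) for classes of sorbitol loops and for the control list; filled symbols are listed ends, open symbols the same ends displaced by 100 kb, bars are 95% intervals. For the motif, the loops with 2 new anchors (13.9% and 13.1%) overlap their displaced ends (13.1% and 14.2%), and for gene starts they lie far to the right of them.

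The CTCF core motif was about as frequent at the ends of loops with 2 new anchors as at all displaced ends, which include bins near control anchors. It was present at 13.9% of ends in wild-type cells (12.6 to 15.2%) and 13.1% in eGFP-YAP cells (11.6 to 14.7%), against 13.1% and 14.2% at displaced ends. The difference was 0.749 percentage points in wild-type cells (-0.787 to 2.34) and -1.08 in eGFP-YAP cells (-2.96 to 0.883). Against all displaced ends the intervals thus allow at most a small excess. Genome bins hold the motif in 8.69%. Loops with 1 new anchor held it at 18.4% and 19.8% of ends, loops with no new anchor at 24.2% and 28.2%, loops shared with control at 32.8% and 45.4%, and the control lists at 24.9% and 34.1%.

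The rule touches this measure indirectly, because control anchors, which the loops had to avoid, hold the motif often. Displaced ends that also lay more than 10 kb from every control anchor held the motif in 11.6% in wild type and 11.7% in eGFP-YAP. The loop ends themselves stood at 13.9% and 13.1% beside these. The new ends of loops with 1 new anchor had the motif in 14.3% and 15.7%, and their old ends in 22.6% and 23.8%. Control loops of the other line that were new by the same rule had the motif at 24.1% of ends against the wild-type control, and at 12.4% against the eGFP-YAP control. Displaced ends of these 2 sets that lay away from control anchors had it in 8.74% and 8.67%, below the sets themselves.

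A motif at both ends was rare. It was found in 23 of 1389 wild-type loops (1.66%) and 19 of 909 eGFP-YAP loops (2.09%). Of the pairs with motifs on a single strand at each end, 4 of 21 in wild type (19.05%, 7.67 to 40.001%) and 4 of 15 in eGFP-YAP (26.7%, 10.9 to 52.0%) pointed toward each other. In the control lists 67.4% and 76.2% of such pairs did, and in loops with 1 new anchor 46.8% and 44.4%. Ends with a gene start had the motif in 16.9% (wild type) and 14.8% (eGFP-YAP), and ends without one in 12.6% and 12.2%. Displaced bins with a gene start had it more often, in 21.1% and 21.9%. The separate intervals overlapped those of the loop ends in both lines, which does not show that the shares are equal, and the difference was not tested.

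Base composition differed from the surroundings. The median GC content of the ends was 46.9% (wild type) and 47.7% (eGFP-YAP), against 44.5% and 45.1% at displaced ends and 42.4% in the control lists. The ratio of observed to expected CpG dinucleotides had a median of 0.325 and 0.367, against 0.253 and 0.261 at displaced ends. At ends without a gene start it was 0.269 and 0.279, compared with 0.246 and 0.254 at displaced ends without one. At ends that held a gene start it was 0.535 and 0.549.

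Loops with 2 new anchors were shorter than other sorbitol loops. Their median span was 160 kb in wild-type cells (150 to 175 kb) and 165 kb in eGFP-YAP cells (155 to 175 kb). Loops with 1 new anchor had medians of 225 kb and 212.5 kb, loops with no new anchor 275 kb and 270 kb, and loops shared with control 210 kb and 270 kb. Spans under 100 kb made up 26.2% and 27.7% of loops with 2 new anchors, against 15.0% and 18.3% of loops with 1 new anchor. Within bands of span the gene starts were not evenly held: in wild type, 32.3% of ends of loops under 100 kb had one and 20.6% of ends of loops over 500 kb, and in eGFP-YAP 39.7% and 27.8%. At spans of 200 to 500 kb, loops with 2 new anchors had gene starts at 29.6% and 33.5% of ends and loops with 1 new anchor at 19.1% and 29.7%. Under 100 kb these 2 classes lay close together, at 32.3% and 31.8% in wild type and 39.7% and 37.7% in eGFP-YAP. In eGFP-YAP the short loops with no new anchor held gene starts at 47.2% of ends (84 of 178, 39.99 to 54.5%), so the order of the classes given above did not hold at every span.

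**Figure D3:**
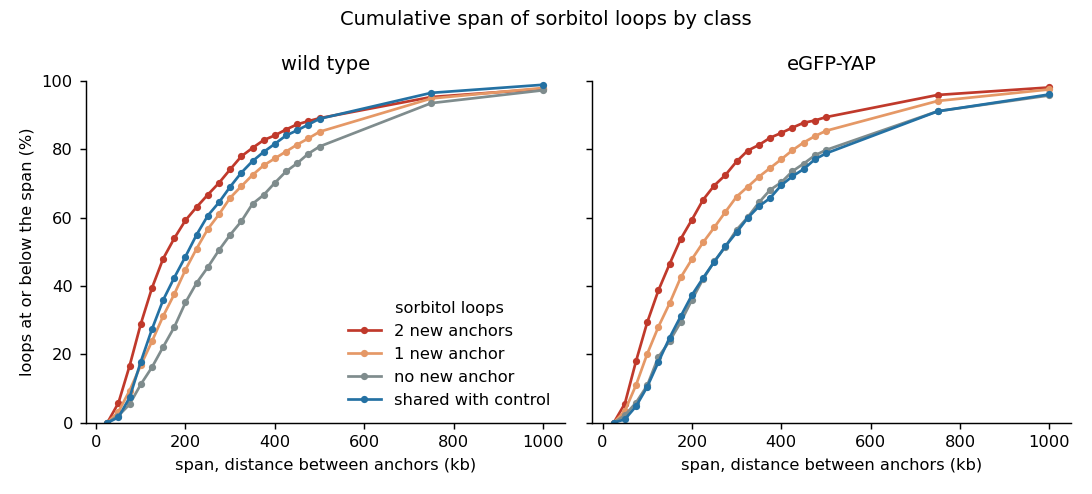
Cumulative percent of sorbitol loops at or below a given span in kb, for 4 classes of loops in wild-type (left) and eGFP-YAP cells (right). The curve of loops with 2 new anchors lies above the others from 50 to 400 kb in both lines, and their medians are 160 and 165 kb.

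Their scores were not those of the strongest calls. The median score stood at percentile 45.8 of the wild-type sorbitol list (42.9 to 48.3) and 38.2 of the eGFP-YAP list (35.5 to 41.4). Loops with 1 new anchor stood at 45.5 and 41.6, and loops shared with control at 62.1 and 64.9. Gene starts were more frequent at higher scores. From the lowest to the highest quartile of the wild-type list, 20.05%, 26.0%, 37.7% and 36.5% of ends held a gene start. The eGFP-YAP shares were 26.8%, 35.5%, 44.1% and 38.8%. Spans grew along the same quartiles, from a median of 120 kb in the lowest to 270 kb and 275 kb in the highest.

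The distance that defined the class was often only just passed. The nearer anchor lay exactly 15 kb from a control anchor, 1 bin past the limit, in 350 wild-type and 266 eGFP-YAP loops. Another 707 and 500 sorbitol loops had their nearer anchor at 10 kb and were left out. The median distance of an end to the nearest control anchor was 35 kb in both lines. Both ends lay more than 100 kb from every control anchor in 112 wild-type loops (8.06%) and 48 eGFP-YAP loops (5.28%), and more than 500 kb in 16 and 2. A loop with 2 new anchors lay inside a control loop in 24.98% and 37.2% of cases, against 45.8% and 50.4% for loops with 1 new anchor.

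The sorbitol list of the other line was not used by the rule. Of the wild-type loops with 2 new anchors, 21.96% (19.9 to 24.2%) were also in the eGFP-YAP sorbitol list, within 10 kb at both ends, and 6.12% were in the eGFP-YAP control list. Of the eGFP-YAP loops, 23.4% (20.8 to 26.3%) were in the wild-type sorbitol list and 2.09% in the wild-type control list. The rule bears directly on the low shares in the control lists. The loops had to avoid the control anchors of their own line, and 72.4% of wild-type and 68.5% of eGFP-YAP control ends lay within 10 kb of a control anchor of the other line. The share in the other sorbitol list was 18.9% and 20.7% for loops with 1 new anchor, 22.3% and 20.7% for loops with no new anchor, and 39.1% and 35.0% for loops shared with control. Loops with 2 new anchors exceeded those with 1 new anchor by 3.06 percentage points in wild-type cells (0.409 to 5.78) and by 2.78 in eGFP-YAP cells (-0.445 to 6.13). Loops shared with control were in the other control list in 65.5% and 55.3%, and loops with 1 new anchor in 12.6% and 7.16%. The lists of the 2 lines carry different source names, which are not explained, so cell line and source cannot be told apart.

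**Figure D4:**
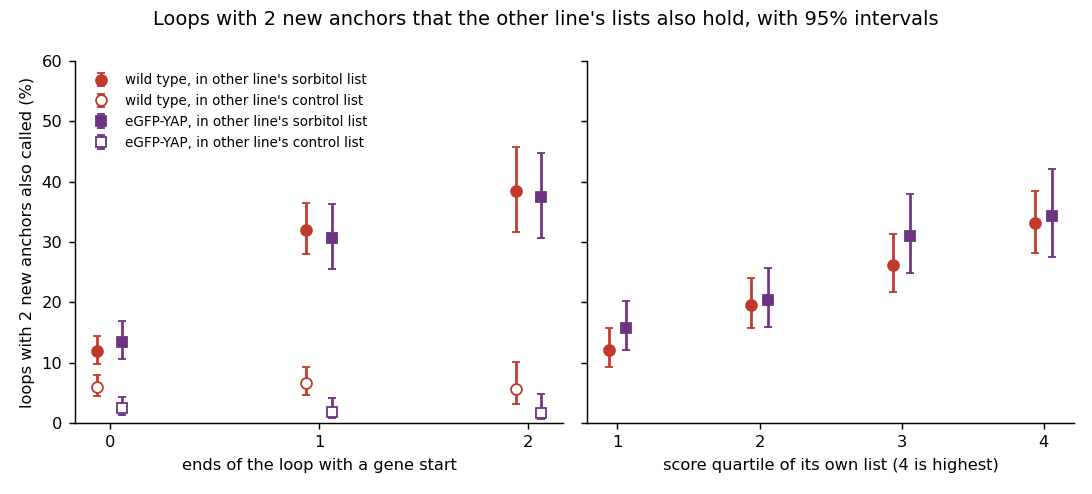
Percent of loops with 2 new anchors that were also called in the lists of the other line, by the number of ends with a gene start (left) and by score quartile (right); bars are 95% intervals. With a gene start at both ends, 38.4% and 37.4% were in the other sorbitol list, against 12.0% and 13.5% with none.

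Loops with gene starts were found in the other line's sorbitol list more often. With a gene start at neither end, 12.0% of wild-type loops (9.83 to 14.5%) and 13.5% of eGFP-YAP loops (10.6 to 16.9%) were matched there. With 1 such end, 32.0% and 30.7% were matched, and with 2, 38.4% (31.6 to 45.8%) and 37.4% (30.7 to 44.7%). In the other line's control list the shares with 0, 1 and 2 such ends were 5.98%, 6.54% and 5.65% in wild type and 2.43%, 1.81% and 1.68% in eGFP-YAP, with overlapping intervals. Score moved with this result: loops with 0, 1 and 2 gene-start ends had median score percentiles of 37.7, 51.5 and 60.3 in wild type and 32.7, 41.6 and 48.7 in eGFP-YAP. The share matched in the other sorbitol list rose from 12.1% in the lowest score quartile to 33.1% in the highest in wild type, and from 15.7% to 34.4% in eGFP-YAP. The part of score in the result was not tested.

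Loops with 2 new anchors in both lines were fewer. There were 140, or 10.1% of the wild-type and 15.4% of the eGFP-YAP set, and 28 of them had identical bins at both ends. Their ends held a gene start in 48.9% (43.1 to 54.8%), against 27.1% of ends of the other wild-type loops and 32.0% of the other eGFP-YAP loops. Gene starts lay at both ends in 24.3% of them, compared with 11.4% and 17.9%. The motif share, 13.9%, was near that of the others (13.9% and 12.7%). Their median span was 127.5 kb. When an anchor also had to be new to the control list of the other line, 663 of the wild-type loops (47.7%) and 613 of the eGFP-YAP loops (67.4%) remained. Of the single ends, 32.9% in wild type and 19.6% in eGFP-YAP lay within 10 kb of a control anchor of the other line. Bins within 10 kb of those anchors make up 19.7% and 18% of the whole genome. These genome shares also count bins near control anchors of the same line, which the ends had to avoid. They are therefore not a like-for-like background for the ends, and the comparison with bins that the rule allowed was not tested. Ends near a control anchor of the other line held gene starts in 29.5% and 35.7%. The share was much the same at ends away from such anchors of the other line (29.1% and 34.7%).

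**Figure D5:**
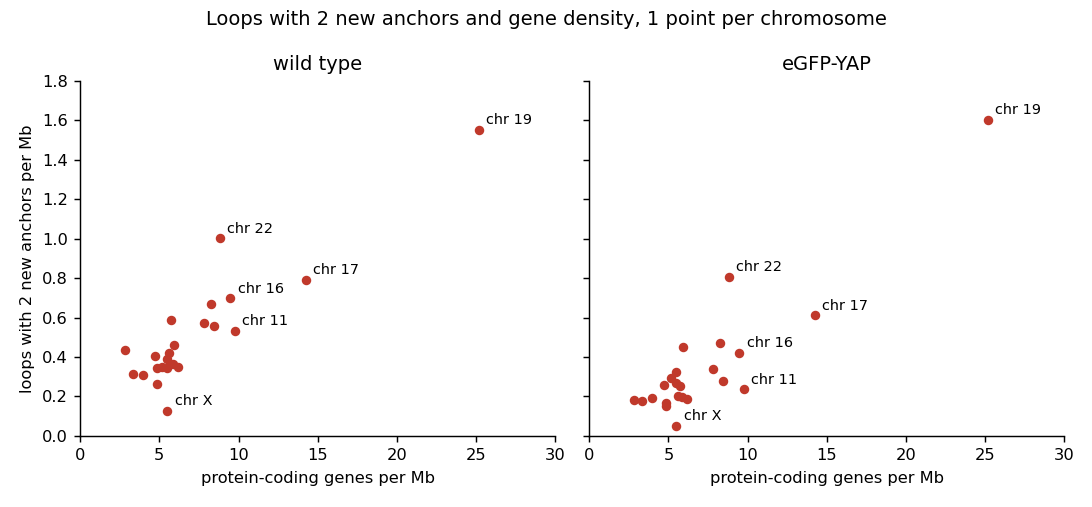
Loops with 2 new anchors per Mb against protein-coding genes per Mb, 1 point per chromosome, in wild-type (left) and eGFP-YAP cells (right). Chromosome 19 lies highest on both axes, with 1.55 and 1.604 loops per Mb, and chromosome X has the fewest loops per Mb, 0.128 and 0.0513.

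By chromosome, loops with 2 new anchors followed gene density. Chromosome 19, the most gene-dense, had 91 in wild type and 94 in eGFP-YAP, which is 1.55 and 1.604 per Mb, and chromosome 22 had 1.00 and 0.807 per Mb. Chromosome X had 0.128 and 0.0513 per Mb. Across 23 chromosomes the rank correlation of loops per Mb with genes per Mb was 0.774 (wild type) and 0.686 (eGFP-YAP), a description in which all points come from the same list. As a share of all sorbitol loops of the chromosome, chromosome 19 was also highest, at 37.8% (31.9 to 44.03%) and 26.3% (21.97 to 31.0%). The lowest shares were 14.4% on chromosome 10 and 14.6% on chromosome 6 in wild type, and 8.72% on chromosome 6 and 8.88% on chromosome 5 in eGFP-YAP. The share itself had a rank correlation with gene density of 0.331 in wild type and -0.125 in eGFP-YAP. Loops within 5 Mb of a chromosome end made up 20.1% and 23.7%, against 17.6% and 19.2% of loops with 1 new anchor and 8.72% and 7.61% of the control lists.

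Anchors of loops with 2 new anchors were rarely used more than once. Reuse is not compared with that in other loops here. The wild-type loops used 2624 distinct bins, of which 138 ended 2 loops and 8 ended 3. The eGFP-YAP loops used 1692, of which 98 ended 2 and 14 ended 3. Bins that ended 2 or more loops held a gene start in 52.7% (wild type) and 64.3% (eGFP-YAP), and bins that ended 1 loop in 26.4% and 30.6%. In wild type, the bin with the starts of CNOT11, a subunit of the CCR4-NOT deadenylase, and TBC1D8 at chr2:101250001-101255000 was joined to a bin in PDCL3, to the start of the ribosomal protein gene RPL31 and to a bin within TBC1D8. The start of FAM193A at chr4:2535001-2540000 was joined to LETM1, to CFAP99 and ZFYVE28, and to NOP14.

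In eGFP-YAP cells, the bin within LRRFIP1 at chr2:237690001-237695000 ended 3 loops, to the start of SCLY, to a second bin within SCLY and to HES6. The bin with the starts of LIG1, a DNA ligase of replication and repair, and ZSWIM9 at chr19:48170001-48175000 was joined to bins within GRIN2D, KCNJ14 and LMTK3. A bin outside genes at chr2:240830001-240835000 was joined to the starts of ANKMY1 and RNPEPL1, to FARP2 and to THAP4. Joined end to end (ends within 10 kb), 314 wild-type loops fell into 80 groups of 3 or more and 187 eGFP-YAP loops into 46. The biggest wild-type group had 12 loops over chr20:63430001-64075000, with the starts of DNAJC5, GMEB2, PPDPF, PRPF6, RTEL1, SAMD10 and STMN3 among others in its anchors. A group of 10 in eGFP-YAP cells lay over chr2:240565001-241635000, with the starts of FARP2, HDLBP, PPP1R7 and SEPTIN2 among others.

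Of 19962 protein-coding genes, 926 started in an anchor of a wild-type loop with 2 new anchors (4.64%) and 696 in an anchor of an eGFP-YAP loop (3.49%). The gene lists below are read against these shares. In all, 168 genes were in both sets, which is 18.1% of the wild-type and 24.1% of the eGFP-YAP genes. For comparison, 12.7% and 13.7% of genes started in any sorbitol anchor, and 8.29% and 13.1% in any control anchor.

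Genes of the general transcription machinery were among them in 7 of 56 cases in wild type (12.5%) and 6 of 56 in eGFP-YAP (10.7%). GTF2H1, a subunit of TFIIH, POLR2B, the second largest subunit of RNA polymerase II, and TAF11, a subunit of TFIID, were in both lines. TAF10, TAF4 and TAF7 were among those in wild type, and MED24, POLR2A and TAF9 in eGFP-YAP. Genes for loop and chromosome structure numbered 5 of 28 in wild type (17.9%) and 2 of 28 in eGFP-YAP (7.14%). RAD21, the cohesin subunit, was in both; CTCF itself, ESCO1, MAZ and YY1 were in wild type and ZNF143 in eGFP-YAP. Mitochondrial ribosome genes numbered 8 and 2 of 78 (10.3% and 2.56%), and cytosolic ribosomal protein genes 7 and 5 of 81 (8.64% and 6.17%), with none of either list in both lines. These lists were also frequent in sorbitol anchors of any kind, where 12.7% and 13.7% of all genes started. There the shares were 30.4% and 26.8% for general transcription, 28.6% and 35.7% for loop and chromosome structure, 21.8% in both lines for the mitochondrial ribosome, and 20.99% and 33.3% for ribosomal proteins, so the counts are not particular to loops with 2 new anchors.

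In loops with 2 new anchors, lists closer to the treatment stood near the shares over all genes, on few genes. Of 24 genes of osmotic stress and cell volume, 2 were in wild type, AQP3, a water and glycerol channel, and MAPK14, the p38 kinase (8.33%), and 0 in eGFP-YAP. Of 29 YAP and TEAD genes, TEAD4, a transcription factor that binds YAP, was in both lines and TEAD2 in eGFP-YAP (3.45% and 6.90%). Of 32 immediate early and stress response genes, the list held HSP90AB1 in wild type and IER2 in eGFP-YAP, 1 each (3.13%). In sorbitol anchors of any kind, these 3 lists stood at 12.5% in both lines, 24.1% in both lines, and 25% and 34.4%. Of all genes, 12.7% and 13.7% started there. In control anchors the 3 lists stood at 4.17% and 29.2%, 20.7% and 31.0%, and 3.13% and 12.5%, against 8.29% and 13.1% of all genes. Zinc finger genes with ZNF symbols stood near the background, at 24 and 21 of 515 (4.66% and 4.08%), as did solute carriers, at 12 and 13 of 373 (3.22% and 3.49%). SR and hnRNP splicing factors numbered 2 and 3 of 38, and proteasome subunits 3 and 0 of 40.

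Clustered gene families contributed few genes. The HOX, protocadherin and keratin lists are short, so shares near those of all genes would also give few there. No HOX gene of 39, no protocadherin gene of 53 and no keratin gene of 50 started in an anchor of either set. Histone genes numbered 1 of 93 in wild type (H2AZ2, 1.08%) and 0 in eGFP-YAP, and olfactory receptor genes 1 and 3 of 400 (0.25% and 0.75%). Both lists stood below the 4.64% and 3.49% of all genes, histone genes on few genes. Keratin genes (4% and 2%), olfactory receptor genes (0.5% and 1.5%) and, in wild type, protocadherin genes (1.89%; eGFP-YAP 13.2%) were scarce in sorbitol anchors of any kind as well. HOX and histone genes did start in anchors of other loops. Of HOX genes, 35.9% (wild type) and 17.9% (eGFP-YAP) started in some sorbitol anchor and 20.5% and 33.3% in a control anchor. Of histone genes, 17.2% and 24.7% started in some sorbitol anchor and 21.5% and 18.3% in a control anchor.

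Promoter words were searched in the 250 bases before the start, on both strands, in the RefSeq promoters of 738 of the 926 wild-type genes, 546 of the 696 eGFP-YAP genes and 15315 genes in all. None of the words contains another, though matches may overlap. The GC box (GGGGCGGGG), a site of SP-family factors, was in 32.1% (28.8 to 35.6%) and 36.8% (32.9 to 40.9%), against 22.2% of all promoters and 24.0% and 25.6% of genes starting in a control anchor. The ETS word (CCGGAAGT) was in 10.8% (8.80 to 13.3%) and 9.16% (7.02 to 11.9%), against 5.20% of all and 5.44% and 5.95% of control-anchor genes. The YY1 word (AAGATGGC) was in 2.44% (1.55 to 3.82%) and 2.56% (1.53 to 4.26%), against 1.42% of all and 0.867% and 1.48% of control-anchor genes. For these 3 words the share was above that of all promoters in both lines, with intervals that excluded it. In eGFP-YAP the YY1 interval overlapped that of control-anchor genes (1.04 to 2.10%). The ETS interval there overlapped that of control-anchor genes (5.01 to 7.07%) only at its edge, between 7.02 and 7.07%. Overlap does not show equal shares, and differences from control-anchor genes were not tested.

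The other words showed no such excess in both lines. The NRF1 word was in 2.17% and 0.916%, against 1.502% of all promoters. The AP-1 word (TGANTCA), bound by stress-induced FOS and JUN proteins, was in 3.66% and 3.11%, against 4.93%. The TEAD word (ACATTCC) was in 1.76% and 1.10%, against 2.08%. The median ratio of observed to expected CpG in these promoters was 0.864 and 0.854, against 0.743 in all promoters and 0.761 and 0.798 in genes at control anchors. Their median GC content was 66.8% and 68%, against 62.4% in all promoters and 63.6% and 64.4% in genes at control anchors. The part of base composition in the shares of the words was not tested.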

How the data were processed

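The 4 deposited loop lists give coordinates of both 5 kb anchors, a peak score, a contact value and a probability of enrichment. Per the file headers, which are those of the SIP caller, the deposited peak score has no stated scale and served only as a rank within a list. The deposited probability is a fraction; its lowest value was 0.900 and no cut-off was set on it; the contact value, a deposited score, was not used. Caller version, settings, map normalization, aligner, depth and pooled replicates are not given in the sources used here. The submitters' processing notes name hg38 and GRCh38, and control anchors held the CTCF motif most often at the listed position of hg38 (24.9% and 34.1%, against 9.92% and 10.0% at 100 kb).

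Each list was assigned by its name; 0 columns were left without a group. Loops matched within 10 kb at both ends. CTCF core motif matches on either strand could have 1 mismatch. Displaced ends are the same ends moved by 100 kb both ways. Shares have Wilson 95% intervals, differences Newcombe intervals and medians order-statistic intervals. Loops named were the 12 highest by mean score percentile among those matched between lines, plus the longest and 1 of the shortest. The 12 were limited to 1 per chromosome, with none on chromosome 8. Also named were the 3 most used anchors per line, and list genes. Of these, 1 anchor and 1 list gene are not reported here. Only the 250 bases before a start are printed, and only windows with at most 30 bases in a UTR or coding exon. Members and gene lists were chosen with earlier results of these data known. Distance, score, matching, annotation, motif and background were varied (closing section). Python 3.11.15, numpy 2.4.6, pandas 2.3.3 and scipy 1.17.1 were used, and the classes and motif search were tested on simulated data.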

Additional observations from a re-analysis of the deposited data

Results flagged for a closer look

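Among 18 contrasts computed in both lines, 2 had opposite signs in wild-type and eGFP-YAP cells. Neither difference between the lines was tested, since each line has 1 list per condition. The share of loops also called in the sorbitol list of the other line, for loops with 2 new anchors minus loops with no new anchor, was -0.333 percentage points in wild type and 2.72 in eGFP-YAP. Both intervals include 0 (-3.78 to 3.05 and -1.05 to 6.49). The share of ends with the CTCF core motif, minus that of ends displaced by 100 kb, was 0.749 percentage points in wild type and -1.08 in eGFP-YAP. These intervals also include 0 (-0.787 to 2.34 and -2.96 to 0.883).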

How the results depend on the processing

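No paired analysis was possible because each condition has 1 pooled list whose columns carry no replicate numbers, and no replicate could be left out. Depth is unknown, so a loop missing from a list may only be uncalled there, and the counts describe lists. Of 78 alternative values, 42 stayed within the interval of the main value, or within 1.5 times a count, and 36 moved; pairs below are wild type and eGFP-YAP.

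With a limit of 5 kb the sets grew to 2096 and 1409 loops, and with 25 kb they shrank to 612 and 348. Ends near the other line's control anchors then made up 39.3% and 26.4% (5 kb) and 28.6% and 16.5% (25 kb). At 25 kb the wild-type median span was 140 kb, and in eGFP-YAP 30.5% of ends held gene starts and 20.4% of loops were in the other sorbitol list. In the upper 50% by score there were 627 and 347 loops, with gene starts at 37.1% and 41.6% of ends, motifs at 15.6% and 16.3%, 29.7% and 32.6% matched in the other sorbitol list, and median spans of 220 and 240 kb; 23.3% of eGFP-YAP ends lay near the other control anchors. When anchors had to be new to both control lists, 663 wild-type loops remained, with a median span of 145 kb. Matching at 0 kb gave 4.25% and 4.40% in the other sorbitol list, and at 25 kb 31.7% and 34.8%. Anchors widened by 5 kb on each side held gene starts in 52.8% and 57.2% (displaced 20.5% and 20.01%) and motifs in 33.1% and 32.5% (displaced 32.7% and 33.6%). Genes of all types gave 37.0% and 42.5% (displaced 15.7% and 17.3%). Without a motif mismatch, 1.55% and 1.21% of ends matched (displaced 1.44% and 1.40%). Merging neighbouring loops changed nothing, since no loop had both ends within 10 kb of a higher-scoring one. The values of this setting are identical to the main ones and are counted among those that stayed. Restricting displaced ends to those away from control anchors, chosen after seeing the data, gave gene starts at 7.80% and 6.76% and motifs at 11.6% and 11.7%; the wild-type interval of the loop ends for the motif (12.6 to 15.2%) then lay apart from the displaced one (10.6 to 12.6%) by less than 1 percentage point, and the eGFP-YAP intervals overlapped.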
